A study of Homo sapiens with 8 samples.

Results

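The 40 genes described here encode the machinery of mitosis and the proteins of the centromere, and they were taken by name from a table of raw read counts for 54628 genes. All 40 were found in the table under the listed symbols, and all 40 passed the filter on low counts that left 17155 genes for testing. They were sorted by textbook role into mitotic kinases (5 genes), spindle checkpoint genes (5), centromere and kinetochore genes (8), cyclins and other factors of mitotic entry (5), partners of the chromosomal passenger complex (2), anaphase genes (4), spindle and cytokinesis genes (8) and chromosome proteins (3). Messenger RNA was sequenced from IMR90-hTERT cells, a line of human lung fibroblasts kept dividing by telomerase. Every group carried the same pinducer20 transgene, which expresses an N-terminally Flag-tagged YAP5SA under doxycycline. YAP5SA is a mutant of YAP that escapes inhibition by the Hippo pathway, and YAP itself switches on genes together with TEAD transcription factors.

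There were 4 groups, each with 2 of the 8 libraries. Senescent cells with doxycycline received bleomycin, a drug that breaks DNA, at 10 ug/ml over 24 hours, and were collected 9 days later after 11 days of doxycycline at 1 ug/ml. Senescent cells without doxycycline received the same bleomycin treatment alone. Proliferating cells with doxycycline received it for 11 days at the same dose and no bleomycin, and untreated proliferating cells received neither agent. The design has no cells that received doxycycline without carrying the transgene, so effects of doxycycline itself and of YAP5SA cannot be told apart. Nothing in the labels says that replicates came from separate cultures, so p-values measure only the spread between these libraries.

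Total counts ran from 33627708 to 39692162 per library. Values are given in CPM (counts per 1e+06 counts of the TMM-scaled library size), and positions refer to hg38 with the gene bounds of GENCODE 29. ANKRD1, a widely used YAP target, stood at 277 and 266 CPM in proliferating cells with doxycycline, against 3.08 and 3.68 CPM in those without. In senescent cells it stood at 851 and 822 CPM with doxycycline, against 94.6 and 71.7 CPM without. Its level was thus already higher with bleomycin alone. The YAP1 count, in which reads of the endogenous gene and of the transgene may be mixed, was 289 ± 2.83 CPM in senescent cells with doxycycline, against 207 ± 23.4 CPM in those without, and 214 ± 34.0 CPM in proliferating cells with doxycycline, against 197 ± 1.69 CPM without (SD, n = 2 each). All 8 fibroblast markers, among them COL1A1 and VIM, were above 1 CPM in every group. The 7 epithelial markers summed to at most 3.28 CPM and the 6 leukocyte markers to at most 0.732 CPM in any library. Of the 5 endothelial markers, TEK stood at 134 and 154 CPM in senescent cells, against 68.5 and 70.2 CPM in proliferating cells, both without doxycycline (log2 change 1.05, adjusted p = 5.46e-08). VWF stood at 0.924 and 1.31 CPM in senescent cells, against 0.537 and 0.401 CPM in proliferating cells, both without doxycycline (log2 change 1.24, adjusted p = 0.00590), and PECAM1, CDH5 and KDR reached at most 0.112 CPM in any library.

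Mitosis is driven by CDK1 bound to cyclin B, which is switched on by CDC25 phosphatases and supported by the Polo-like and Aurora kinases. The centromere is marked by the histone variant CENP-A, on which a constitutive network of CENP proteins and the microtubule-binding Ndc80 complex assemble the kinetochore. Unattached kinetochores feed the spindle checkpoint, in which MAD2 and the BUB proteins hold the anaphase activator CDC20 until all chromosomes are attached. Transcripts of many of these genes peak in G2 and mitosis. Low levels of them are a textbook mark of cells that have left the cell cycle, including senescent fibroblasts.

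In proliferating cells without doxycycline the 40 genes summed to 4739.7 and 4659 CPM in the 2 libraries. Levels of different genes were compared per kilobase of annotated exon. CDC20, the coactivator of the anaphase-promoting complex, was the most abundant per length (88.8 CPM per kilobase), followed by the ubiquitin-conjugating enzyme gene UBE2C (86.5 CPM per kilobase) and the cyclin gene CCNB1 (73.9 CPM per kilobase). The separase gene ESPL1 (4.34 CPM per kilobase) and SAPCD2, whose product is linked to spindle orientation (4.92 CPM per kilobase), were the least abundant. Exon lengths come from GENCODE 29, which may not be the annotation used for counting, so small differences between genes per kilobase carry that limit.

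**Figure D1:**
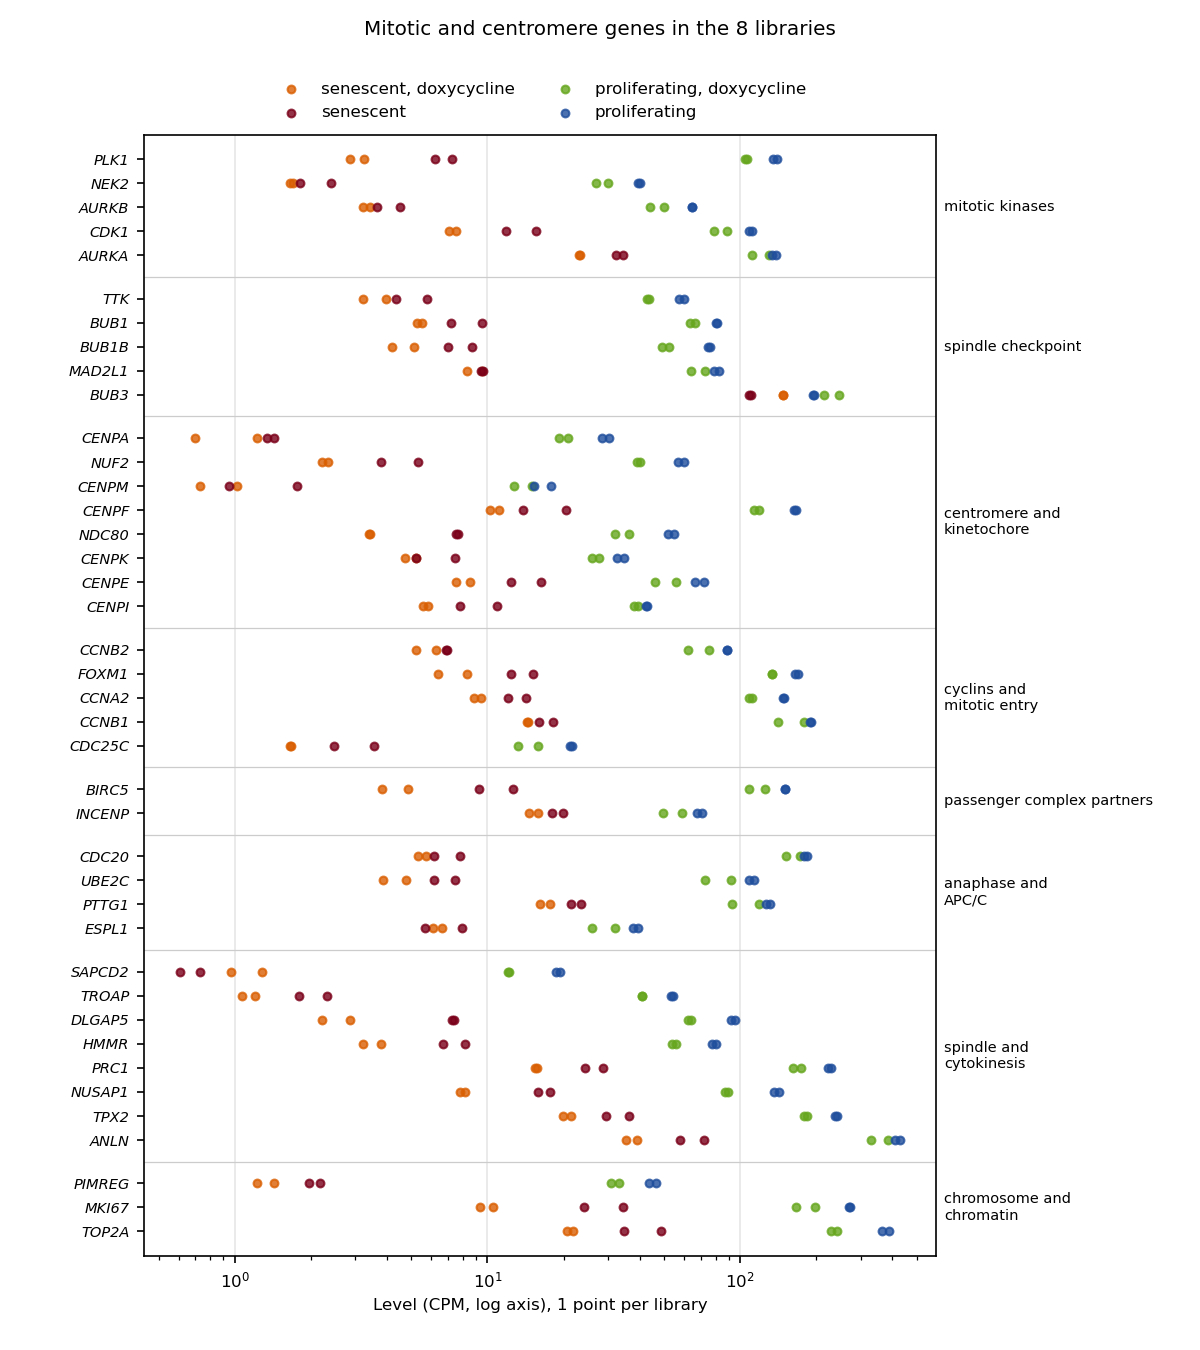
Level of each gene in CPM on a log axis, with 1 point per library, in senescent cells with and without doxycycline and proliferating cells with and without doxycycline, ordered within each role by the change with bleomycin. Proliferating and senescent libraries are separated for every gene shown, a separation that was not counted over all genes tested. BUB3 shows the narrowest gap (senescent 110.1 and 108 CPM, proliferating 196 and 194 CPM, both without doxycycline).

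Bleomycin without doxycycline compares the senescent state with the dividing state of the same line. All 40 genes were lower in senescent cells by edgeR's quasi-likelihood test after Benjamini-Hochberg adjustment across the 17155 genes, where 29.4% of genes were called lower and 29.8% higher. The 40 genes summed to 572 and 668 CPM in the senescent libraries, against 4739.7 and 4659 CPM in the proliferating ones, so 13.2% of the summed level remained. The median log2 change was -3.27, against 0.01 over all genes tested. In the ranking of all genes by log2 change, 18 of the 40 were among the 100 largest falls. In bulk RNA, fewer cycling cells and less of a transcript per cycling cell cannot be told apart. Scaled by total counts alone, the median over all genes was -0.16 and 37.1% of called genes were higher, against 50.3% with TMM factors. Summed fibroblast markers were 25959 to 26977 CPM in senescent cells, against 26629 to 26839 CPM in proliferating cells. Single markers moved in both directions beneath these sums. COL1A2 (log2 change 0.43), THY1 (0.44) and LUM (0.68) were called higher, and VIM (-0.48), PDGFRB (-0.58) and DCN (-0.57) lower. COL1A1 and COL3A1 did not pass. With total-count scaling the 40 genes were still all lower, with a median of -3.44.

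The largest falls were those of SAPCD2, CDC20, TROAP and PIMREG, with CENPA next. SAPCD2 (chromosome 9, 137062124 to 137070588) stood at 0.728 and 0.608 CPM in senescent cells, against 19.3 and 18.6 CPM in proliferating cells (log2 change -4.81, SE 0.17, adjusted p = 2.65e-12). Its senescent level rested on 26 and 20 counts, and 19.4% of its annotated exonic bases lie opposite exons of the antisense transcript AL807752.3, so its reads are uncertain where counting ignored strand. CDC20 (chromosome 1, 43358955 to 43363203) stood at 6.16 and 7.78 CPM in senescent cells, against 183 and 178 CPM in proliferating cells. CENPA, the histone variant that defines the centromere (chromosome 2, 26764289 to 26801067), stood at 1.43 and 1.34 CPM in senescent cells, against 28.4 and 30.1 CPM in proliferating cells. In none of these 3, picked for their large falls, did the libraries of the groups overlap, which was not counted over all genes tested. The smallest change belonged to BUB3, and the second smallest to INCENP.

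Promoter sequences of the genes at both ends of this ranking are shown because mitotic genes are known for shared promoter elements. The cell cycle genes homology region (CHR) is an element bound by MuvB complexes, which in resting cells form the repressor DREAM and in dividing cells act with MYBL2 and FOXM1. CCAAT boxes, bound by NF-Y, often lie upstream of it. The RefSeq promoter table on GRCh38.p14 held 30 of the 40 genes, each with 250 bases before and 50 bases after the start, and the other 10 were AURKA, TTK, BUB3, CENPM, FOXM1, BIRC5, UBE2C, TPX2, TROAP and PIMREG. The entries shown are SAPCD2 (chr9:137070508-137070807, minus strand), CDC20 (chr1:43358731-43359030, plus strand) and CENPA (chr2:26785806-26786105, plus strand), which fell most among those with an entry, and INCENP (chr11:62123761-62124060, plus strand), which fell least. Each is written 5′ to 3′ in the direction of the gene, and capitals mark CHR hexamers (TTTGAA or TTCGAA) and CCAAT pentamers on either strand.
SAPCD2: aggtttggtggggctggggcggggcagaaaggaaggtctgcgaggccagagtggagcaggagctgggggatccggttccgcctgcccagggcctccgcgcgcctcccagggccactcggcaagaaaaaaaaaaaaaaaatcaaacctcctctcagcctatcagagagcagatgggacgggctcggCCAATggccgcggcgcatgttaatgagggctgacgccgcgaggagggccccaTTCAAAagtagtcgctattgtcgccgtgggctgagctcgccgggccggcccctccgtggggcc
CDC20: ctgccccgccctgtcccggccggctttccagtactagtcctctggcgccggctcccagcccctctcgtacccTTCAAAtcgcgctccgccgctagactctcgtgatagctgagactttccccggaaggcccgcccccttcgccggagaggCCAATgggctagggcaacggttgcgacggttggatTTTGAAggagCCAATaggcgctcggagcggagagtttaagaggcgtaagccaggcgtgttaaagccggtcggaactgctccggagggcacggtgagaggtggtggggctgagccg
CENPA: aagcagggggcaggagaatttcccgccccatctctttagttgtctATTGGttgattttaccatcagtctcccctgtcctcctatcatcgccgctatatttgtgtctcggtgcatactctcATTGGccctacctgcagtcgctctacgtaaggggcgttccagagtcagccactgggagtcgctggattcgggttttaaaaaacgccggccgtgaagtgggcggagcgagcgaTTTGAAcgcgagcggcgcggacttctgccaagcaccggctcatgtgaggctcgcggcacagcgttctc
INCENP: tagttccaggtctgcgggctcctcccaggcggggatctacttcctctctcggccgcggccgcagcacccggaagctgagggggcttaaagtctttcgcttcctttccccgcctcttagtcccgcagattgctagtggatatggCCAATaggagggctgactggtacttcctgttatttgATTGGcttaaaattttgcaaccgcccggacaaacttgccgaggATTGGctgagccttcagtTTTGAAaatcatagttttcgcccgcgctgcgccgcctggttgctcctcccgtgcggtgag

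A CHR hexamer was found in 21 of the 30 promoters (70.0%), against 16.6% of all 27303 promoters in the table. A CCAAT pentamer was found in 23 of 30 (76.7%), against 35.7% of all. Both were present in 17 of 30 (56.7%), against 6.58% of all. The hexamer TTTAAA, which differs from TTTGAA in 1 base, was in 9 of 30 (30%), against 12.3% of all, so it too was more frequent in these promoters. It had been planned as a control for letters, and the part of letter composition in the CHR count was not tested. In 12 of the 30 a CHR hexamer began within the 40 bases before the start, a window not counted over all promoters. INCENP, with the smallest fall shown, held a CHR hexamer and 3 CCAAT pentamers, and CDC25C, CENPE and CENPI held neither motif in this window. In MKI67 a CHR hexamer and a CCAAT pentamer shared 1 base, and no other of the 30 promoters had such an overlap. These matches describe letters and are not evidence of binding.

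**Figure D2:**
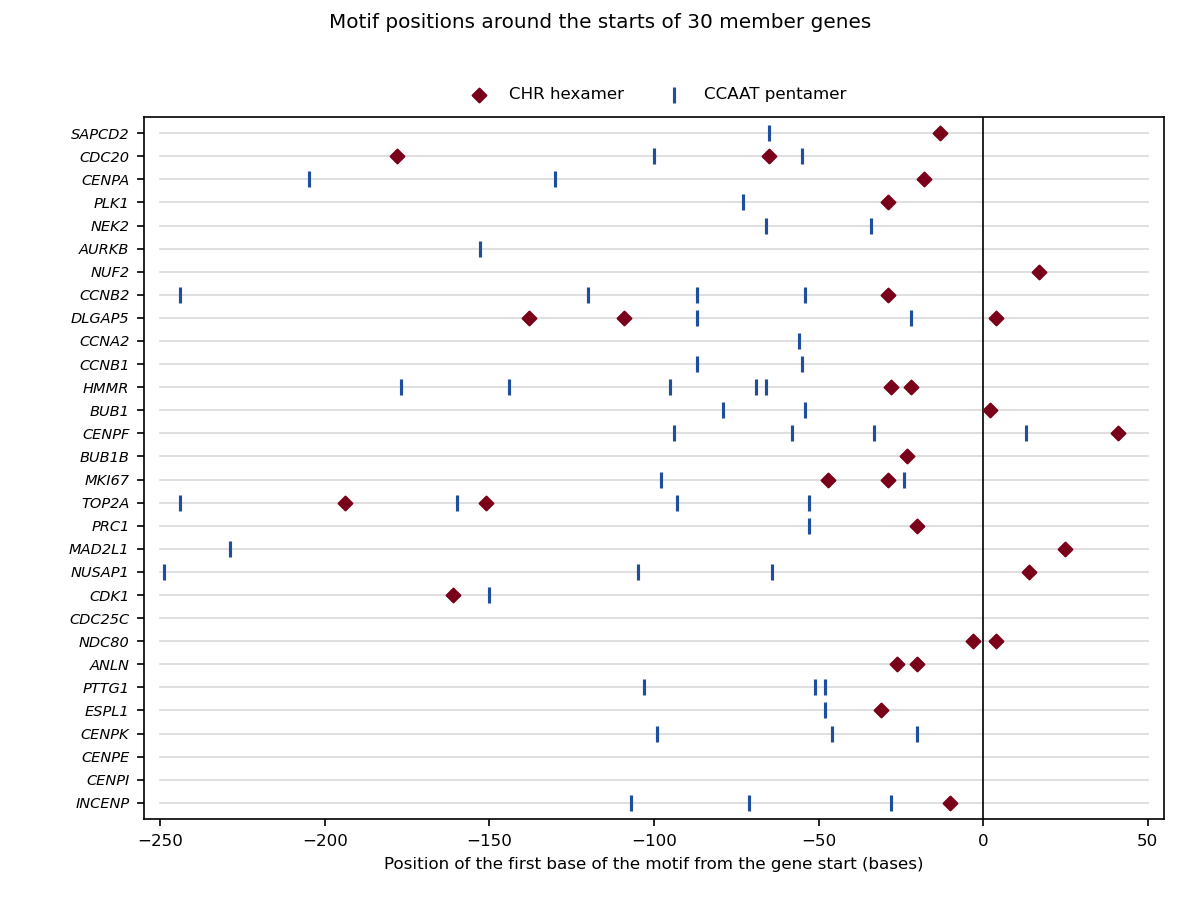
Position of CHR hexamers (diamonds) and CCAAT pentamers (bars) in 30 promoters, in bases from the gene start, with genes ordered from the largest fall with bleomycin at the top to the smallest at the bottom. CHR hexamers occur in 21 promoters from the top to the bottom of the order. In 12 promoters one lies within the 40 bases before the start, a window not counted over all promoters.

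All 5 mitotic kinase genes fell, with a median log2 change of -3.98. PLK1, the Polo-like kinase of spindle assembly and cytokinesis (chromosome 16, 23677656 to 23690367), stood at 7.22 and 6.20 CPM in senescent cells, against 140.3 and 135 CPM in proliferating cells (20.5-fold lower, log2 SE 0.10). The Aurora kinases differed in how much remained. AURKB, the catalytic subunit of the chromosomal passenger complex (chromosome 17, 8204733 to 8210600), stood at 3.67 and 4.50 CPM in senescent cells, against 64.4 and 64.3 CPM in proliferating cells, which left 6.34% (log2 change -3.98, SE 0.12, adjusted p = 3.54e-13). AURKA, the kinase of the spindle poles (chromosome 20, 56369389 to 56392337), stood at 32.3 and 34.4 CPM in senescent cells, against 139 and 133 CPM in proliferating cells, which left 24.5% (log2 change -2.03, SE 0.09, adjusted p = 2.62e-11). AURKA thus kept the largest share among the 5 kinases, and the log2 changes of the Aurora genes lay further apart than both SEs. CDK1, the master kinase of mitotic entry, changed by log2 -3.01 and NEK2, which separates centrosomes, by log2 -4.24.

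Among the cyclins and entry factors all 5 fell, from log2 -3.68 to -2.83. CCNB1 (chromosome 5, 69167010 to 69178245) stood at 16.0 and 18.1 CPM in senescent cells, against 188 and 190.0 CPM in proliferating cells (log2 change -3.47, SE 0.11, adjusted p = 8.07e-13). CCNB2 (chromosome 15, 59105078 to 59125045), the other mitotic B-type cyclin here, stood at 6.92 and 6.84 CPM in senescent cells, against 88.3 and 88.4 CPM in proliferating cells (log2 change -3.68, SE 0.12, adjusted p = 6.78e-13). The changes of the 2 genes differed by less than the sum of their SEs. CDC25C, the phosphatase that activates CDK1, stood at 2.46 and 3.56 CPM in senescent cells, against 21.2 and 21.5 CPM in proliferating cells, the smallest fall of this class (log2 change -2.83, SE 0.16, adjusted p = 4.42e-10). FOXM1, a transcription factor of G2 and mitotic genes, changed by log2 -3.61 and CCNA2, the cyclin of S and G2 phase, by -3.50.

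Of the 5 spindle checkpoint genes 4 fell to 8.63 to 11.8% of their proliferating level and the BUB3 gene kept more than any other member. BUB1, a kinase that recruits checkpoint proteins to kinetochores (chromosome 2, 110637698 to 110678114), stood at 7.17 and 9.48 CPM in senescent cells, against 80.0 and 81.1 CPM in proliferating cells (log2 change -3.28, SE 0.11, adjusted p = 1.66e-12). BUB1B, which encodes the checkpoint effector BubR1 (chromosome 15, 40161023 to 40221136), stood at 6.97 and 8.72 CPM in senescent cells, against 74.4 and 75.7 CPM in proliferating cells (log2 change -3.26, SE 0.12, adjusted p = 2.47e-12). The 2 related genes changed by nearly equal amounts. TTK, the MPS1 kinase at the top of the checkpoint, had the largest fall of the class, at 4.34 and 5.78 CPM in senescent cells, against 60.1 and 57.1 CPM in proliferating cells (log2 change -3.54). BUB3, the WD-repeat protein that brings BUB1 and BubR1 to kinetochores (chromosome 10, 123154277 to 123170467), stood at 110.1 and 108 CPM in senescent cells, against 196 and 194 CPM in proliferating cells (log2 change -0.84, SE 0.08, adjusted p = 2.70e-07). It thus kept 56.0% of its level, next to 27.5% for INCENP. The checkpoint gene MAD2L1 changed by log2 -3.09.

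All 8 centromere and kinetochore genes fell, from log2 -4.40 for CENPA to -2.19 for CENPI. CENPI, a subunit of the constitutive centromere network (chromosome X, 101098218 to 101163681), stood at 7.78 and 10.9 CPM in senescent cells, against 42.5 and 42.7 CPM in proliferating cells (log2 change -2.19, SE 0.12, adjusted p = 5.23e-10). Another subunit of that network, CENPK, kept 18.8%, and the kinetochore motor gene CENPE 20.7%. The Ndc80 complex partners NDC80 and NUF2, which bind each other in a dimer, changed by log2 -2.81 (SE 0.10) and -3.69 (SE 0.13). CENPM, a further subunit of the network, stood at 0.952 and 1.76 CPM in senescent cells, against 17.8 and 15.3 CPM in proliferating cells (log2 change -3.61, SE 0.22), and its senescent libraries held 34 and 58 counts. CENPF, a kinetochore protein of G2 and mitosis, changed by log2 -3.26.

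In the chromosomal passenger complex the scaffold gene INCENP (chromosome 11, 62123973 to 62153163) stood at 18.0 and 19.9 CPM in senescent cells, against 70.5 and 67.5 CPM in proliferating cells (log2 change -1.86, SE 0.10, adjusted p = 2.92e-10). BIRC5, which encodes survivin (chromosome 17, 78214186 to 78225636), stood at 9.30 and 12.7 CPM in senescent cells, against 151 and 151 CPM in proliferating cells (log2 change -3.78, SE 0.14, adjusted p = 3.87e-11). The scaffold therefore kept a larger share than survivin or AURKB. Among anaphase genes CDC20 fell most and ESPL1 least. ESPL1, the separase that cuts cohesin, stood at 5.66 and 7.96 CPM in senescent cells, against 39.4 and 37.7 CPM in proliferating cells (log2 change -2.50, SE 0.14, adjusted p = 1.42e-09). PTTG1, the securin that holds separase inactive, changed by log2 -2.53 and UBE2C by -4.03. Annotated copies could take CDC20 reads, and CDC20P1 held 661 counts over all libraries.

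Spindle and cytokinesis genes fell by log2 -4.81 to -2.69. ANLN, the anillin scaffold of the cleavage furrow, had the smallest fall of this class, at 57.7 and 71.9 CPM in senescent cells, against 429 and 408 CPM in proliferating cells (log2 change -2.69, SE 0.11, adjusted p = 2.12e-11). It was also the most abundant of the 40 genes in senescent cells after BUB3 in CPM. The midzone crosslinker gene PRC1 changed by log2 -3.10, the Aurora A activator gene TPX2 by -2.86, the spindle protein gene HMMR by -3.41 and NUSAP1, a spindle microtubule protein, by -3.05. Exons of NUSAP1 and PRC1 overlap unnamed same-strand loci in GENCODE over 62.2% and 57.6% of their bases, so their reads may have been split. The 3 chromosome proteins fell too. PIMREG, a mitotic regulator, stood at 2.18 and 1.98 CPM in senescent cells, against 46.5 and 43.4 CPM in proliferating cells (log2 change -4.43). TOP2A, the topoisomerase that untangles chromosomes (chromosome 17, 40388516 to 40417950), stood at 34.8 and 48.7 CPM in senescent cells, against 388 and 365 CPM in proliferating cells (log2 change -3.18), and the Ki-67 gene MKI67 changed by log2 -3.22.

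**Figure D3:**
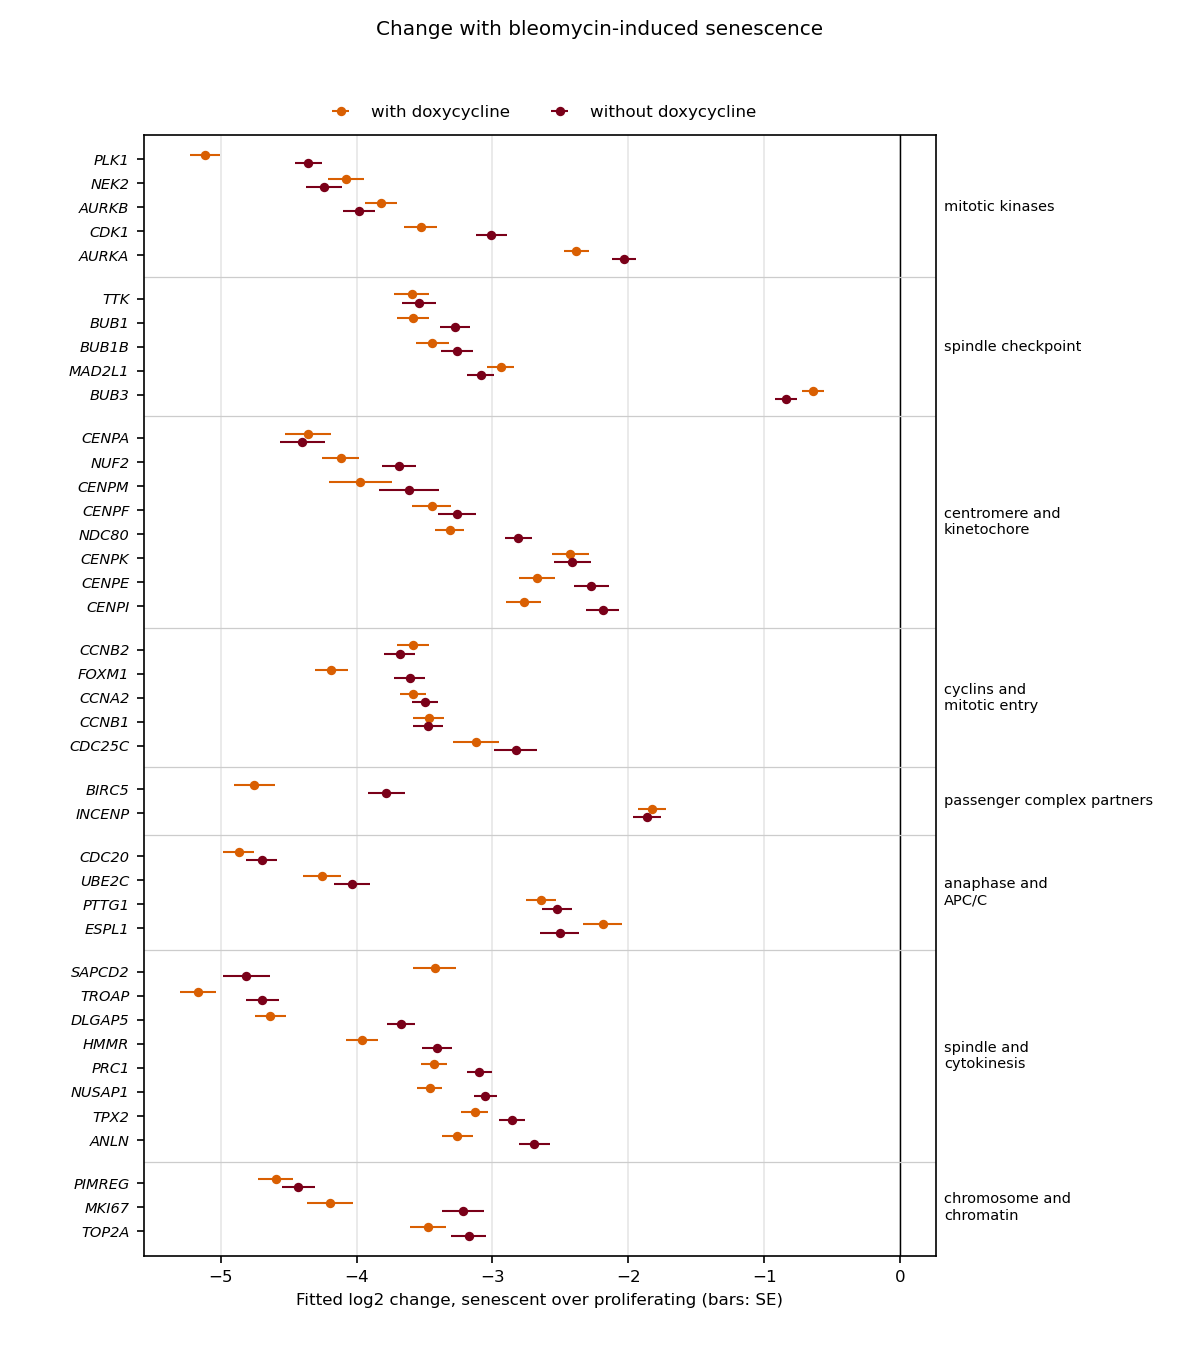
Fitted log2 change of each gene, senescent over proliferating, with and without doxycycline (points, bars give the SE of the fit). All 40 genes lie below 0 in both comparisons, from -4.81 for SAPCD2 to -0.84 for BUB3 without doxycycline.

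With doxycycline, the same comparison of senescent and proliferating cells also found all 40 genes lower, where 28.7% of the genes tested were called lower and 26.8% higher. The median log2 change was -3.50, against -0.01 over all genes tested, and the summed level was 452 and 466 CPM in senescent cells with doxycycline, against 3684 and 3580.2 CPM in proliferating cells with it. TROAP, a spindle-associated protein, fell most, at 1.07 and 1.20 CPM in senescent cells with doxycycline, against 41.0 and 40.8 CPM in proliferating cells with it (log2 change -5.17, SE 0.13, adjusted p = 2.15e-13). PLK1 came next (log2 change -5.12, SE 0.11, adjusted p = 9.80e-14). BUB3 again changed least (log2 change -0.64, SE 0.08, adjusted p = 5.95e-06). This comparison shares no library with the one without doxycycline, and across the 40 genes Pearson's r between their log2 changes was 0.891 and Spearman's rho 0.870, as a description of genes measured in the same line and scaled together. SAPCD2, which led the falls without doxycycline, changed by log2 -3.43 with it.

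Doxycycline in proliferating cells compares these transcripts between cells without bleomycin that did and did not receive doxycycline, which induces YAP5SA. In bulk RNA of either state, fewer cycling cells and less of a transcript per cycling cell cannot be told apart here either. Of the 40 genes 30 were lower and 1 higher with doxycycline, where 10.4% of all genes tested were called lower and 12.6% higher. The falls were small. The median log2 change was -0.42, against 0.00 over all genes tested, and the summed level was 3684 and 3580.2 CPM with doxycycline, against 4739.7 and 4659 CPM without. TOP2A had the largest fall, at 229 and 241 CPM with doxycycline, against 388 and 365 CPM without (log2 change -0.68, SE 0.12, adjusted p = 8.53e-04). NUSAP1 stood at 89.1 and 86.9 CPM with doxycycline, against 136 and 142 CPM without (log2 change -0.66, SE 0.08, adjusted p = 1.53e-05). SAPCD2 stood at 12.1 and 12.1 CPM with doxycycline, against 19.3 and 18.6 CPM without (log2 change -0.65, SE 0.12, adjusted p = 0.00137). In these 3 genes, picked for their falls, the libraries with and without doxycycline did not overlap. That separation was not counted over all genes tested. The mitochondrial share of counts was 7.05 and 6.88% with doxycycline, against 5.59 and 5.94% without, and summed fibroblast markers were 18603 to 18871 CPM with doxycycline, against 26629 to 26839 CPM without. Of the 8 markers 5 were lower, 1 (LUM) was higher and 2 (VIM and THY1) did not pass, and the part of these shifts in the results was not tested.

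By role, 4 of 5 mitotic kinase genes, 3 of 5 checkpoint genes and 5 of 8 centromere and kinetochore genes were called lower with doxycycline. So were 4 of 5 cyclin and entry genes, both passenger complex partners, 2 of 4 anaphase genes, 7 of 8 spindle and cytokinesis genes and all 3 chromosome proteins. AURKB fell by log2 0.45 to 50.1 and 44.1 CPM with doxycycline, against 64.4 and 64.3 CPM without (adjusted p = 0.00230), while AURKA at 130.3 and 111 CPM with doxycycline, against 139 and 133 CPM without, did not pass (log2 change -0.17, SE 0.08, adjusted p = 0.159). Whether the Aurora genes responded differently was not tested. CCNB2 stood at 75.3 and 62.2 CPM with doxycycline, against 88.3 and 88.4 CPM without (log2 change -0.36, SE 0.10, adjusted p = 0.0125), a call lost without either proliferating replicate or proliferating replicate 2 with doxycycline. CCNB1 stood at 178 and 141 CPM with doxycycline, against 188 and 190.0 CPM without, and did not pass (log2 change -0.24, SE 0.10, adjusted p = 0.0862). BUB1B fell more than BUB1 in the fit, with log2 changes of -0.57 (SE 0.10) and -0.31 (SE 0.10), a contrast between genes that was not tested, and the BUB1 call was lost without any of 5 of the 8 libraries.

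BUB3 was the one member called higher. It stood at 246 and 215 CPM with doxycycline, against 196 and 194 CPM without (log2 change 0.24, SE 0.08, adjusted p = 0.0408), a call that was lost without any of 5 of the 8 libraries, with DESeq2 size factors with the block by description number and in a fit to the 4 proliferating libraries alone. CENPI at 38.2 and 39.6 CPM with doxycycline, against 42.5 and 42.7 CPM without, and CDC20 at 172 and 151 CPM with doxycycline, against 183 and 178 CPM without, had the smallest negative changes and did not pass (adjusted p = 0.442 and 0.226). The count of calls rested in part on the untreated libraries. It was 17 without either proliferating replicate 1 or proliferating replicate 2, against 31 with all libraries, and 14 genes were called with every library left out in turn. These were AURKB, BUB1B, CCNA2, DLGAP5, HMMR, NDC80, NEK2, NUF2, NUSAP1, PIMREG, PRC1, SAPCD2, TOP2A and TPX2. The same was not counted over all genes tested. No member passed a test against a change of 1.5-fold (glmTreat), where 689 of all genes did.

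Doxycycline in senescent cells compares these transcripts between bleomycin-treated cells with and without induction of YAP5SA. The 11 days of doxycycline were longer than the 24 hours of bleomycin plus the 9 days after it. If given without a break up to collection, doxycycline therefore began before bleomycin. Of the 40 genes 29 were lower and 2 higher with doxycycline, where 23.8% of all genes tested were called lower and 22.6% higher. The median log2 change was -0.67, against 0.00 over all genes tested. The summed level was 452 and 466 CPM with doxycycline, against 572 and 668 CPM without, and BUB3 alone made up 147 and 148 CPM of it with doxycycline, against 110.1 and 108 CPM without. MKI67, the Ki-67 proliferation marker that coats mitotic chromosomes (chromosome 10, 128096659 to 128126385), had the largest fall, at 9.32 and 10.5 CPM with doxycycline, against 24.1 and 34.4 CPM without (log2 change -1.56, SE 0.16, adjusted p = 3.00e-05). DLGAP5, a microtubule-stabilising spindle protein also called HURP, stood at 2.22 and 2.85 CPM with doxycycline, against 7.25 and 7.39 CPM without (log2 change -1.53, SE 0.13, adjusted p = 1.23e-07). BIRC5 stood at 3.82 and 4.87 CPM with doxycycline, against 9.30 and 12.7 CPM without (log2 change -1.34, SE 0.16, adjusted p = 1.30e-05). Picked for their falls, these 3 genes showed no overlap of libraries, which was not counted over all genes tested.

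Called lower with doxycycline were 3 of 5 mitotic kinase genes, 3 of 5 checkpoint genes, 5 of 8 centromere and kinetochore genes, 3 of 5 cyclin and entry genes, both passenger complex partners, 3 of 4 anaphase genes, 7 of 8 spindle and cytokinesis genes and all 3 chromosome proteins. PLK1 stood at 2.85 and 3.24 CPM with doxycycline, against 7.22 and 6.20 CPM without (log2 change -1.14, SE 0.12, adjusted p = 1.72e-06). AURKA, which did not pass in proliferating cells, stood at 23.0 and 23.3 CPM with doxycycline, against 32.3 and 34.4 CPM without (log2 change -0.53, SE 0.09, adjusted p = 2.16e-04). AURKB at 3.44 and 3.22 CPM with doxycycline, against 3.67 and 4.50 CPM without, did not pass (log2 change -0.29, SE 0.14, adjusted p = 0.0985). The difference of the doxycycline effects between the states passed for neither Aurora gene (adjusted p = 0.0555 for AURKA and 0.544 for AURKB). NDC80, the microtubule-binding kinetochore subunit, stood at 3.44 and 3.41 CPM with doxycycline, against 7.67 and 7.48 CPM without (log2 change -1.14, SE 0.12, adjusted p = 1.40e-06), and its partner NUF2 fell by log2 0.99. Neither cyclin B gene passed. CCNB1 stood at 14.3 and 14.5 CPM with doxycycline, against 16.0 and 18.1 CPM without (adjusted p = 0.0906), and CCNB2 at 5.22 and 6.24 CPM with doxycycline, against 6.92 and 6.84 CPM without (adjusted p = 0.101). BUB1 and BUB1B fell by log2 0.62 and 0.75.

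The centromere and kinetochore genes differed in which of them passed, and no contrast between these genes was tested. CENPA stood at 1.22 and 0.699 CPM in senescent cells with doxycycline, against 1.43 and 1.34 CPM without, and did not pass (log2 change -0.51, SE 0.23, adjusted p = 0.0769). In proliferating cells CENPA had passed, at 20.7 and 19.2 CPM with doxycycline, against 28.4 and 30.1 CPM without (log2 change -0.55, SE 0.12, adjusted p = 0.00379), a call lost without proliferating replicate 2. The fitted changes were close, and the senescent values rest on 48 and 25 counts with doxycycline, against 51 and 44 without. CENPI stood at 5.55 and 5.85 CPM in senescent cells with doxycycline, against 7.78 and 10.9 CPM without (log2 change -0.71, SE 0.14, adjusted p = 5.55e-04). CENPE stood at 7.49 and 8.50 CPM in senescent cells with doxycycline, against 12.4 and 16.2 CPM without (log2 change -0.84, SE 0.14, adjusted p = 1.73e-04). CENPK and CENPM were called in neither state. CENPF, the most abundant centromere or kinetochore gene of the 8 in CPM, fell to 11.1 and 10.2 CPM in senescent cells with doxycycline, against 13.9 and 20.5 CPM without.

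Among the remaining kinase and entry genes CDK1 (chromosome 10, 60778331 to 60794852) stood at 7.49 and 7.02 CPM in senescent cells with doxycycline, against 11.8 and 15.5 CPM without (log2 change -0.91, SE 0.12, adjusted p = 2.22e-05). FOXM1 stood at 6.37 and 8.33 CPM in senescent cells with doxycycline, against 12.3 and 15.1 CPM without (log2 change -0.90, SE 0.12, adjusted p = 2.76e-05). Both were also called lower in proliferating cells, where CDK1 was at 88.7 and 79.0 CPM with doxycycline, against 112 and 109 CPM without, and FOXM1 at 133 and 134 CPM with doxycycline, against 165 and 169.5 CPM without. Both of those calls were lost with the block by description number and without either proliferating replicate or proliferating replicate 2 with doxycycline, and that of FOXM1 also without proliferating replicate 1 with doxycycline. NEK2 at 1.71 and 1.65 CPM in senescent cells with doxycycline, against 1.82 and 2.40 CPM without, did not pass (adjusted p = 0.133). The spindle genes HMMR and NUSAP1 fell by log2 1.07 and 1.07 in senescent cells. ANLN, which did not pass in proliferating cells, fell to 35.4 and 39.1 CPM in senescent cells with doxycycline, against 57.7 and 71.9 CPM without (log2 change -0.80, SE 0.11, adjusted p = 3.04e-05).

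SAPCD2 and BUB3 were called higher with doxycycline in senescent cells. SAPCD2 stood at 0.968 and 1.29 CPM with doxycycline, against 0.728 and 0.608 CPM without (log2 change 0.74, SE 0.22, adjusted p = 0.0126). These levels rest on 38 and 46 counts with doxycycline, against 26 and 20 counts without, and the call was lost without senescent replicate 2, without senescent replicate 2 with doxycycline, in a limma-voom fit and in a fit to the 4 senescent libraries alone. BUB3 rose with doxycycline by log2 0.44 (SE 0.08, adjusted p = 3.87e-04), and its libraries did not overlap, a separation not counted over all genes tested. MAD2L1 at 8.33 and 9.48 CPM with doxycycline, against 9.58 and 9.42 CPM without, and ESPL1 at 6.62 and 6.07 CPM with doxycycline, against 5.66 and 7.96 CPM without, had the smallest changes (adjusted p = 0.495 and 0.643), and both turned positive when scaled by total counts alone.

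The senescent libraries without doxycycline were not alike in these genes. Of the 40 genes 30 were higher in replicate 2 than in replicate 1, by a median of 1.22-fold, while the median of all genes differed by log2 0.00 between them. Without senescent replicate 1 the median change of the 40 genes with doxycycline was log2 -0.82, and without senescent replicate 2 it was -0.52. With every library left out in turn, 24 of the 40 genes were called each time, BUB3 higher and the other 23 lower. How many of all genes tested were called each time was not counted. Scaled by total counts alone, the median over all genes was 0.17, 69.3% of called genes were higher, against 48.7% with TMM factors, and the members' median was -0.50 with 25 called lower. The mitochondrial share of counts was 3.82 and 3.31% in senescent cells with doxycycline, against 6.55 and 5.97% in those without, and summed fibroblast markers were 12424 to 14874 CPM with doxycycline, against 25959 to 26977 CPM without. Of the 8 markers 5 were lower with doxycycline, led in CPM by COL1A1 at 3249 and 4281 CPM with doxycycline, against 11304 and 11735 CPM without, and COL1A2 at 1889 and 2671 CPM with doxycycline, against 6442 and 7023 CPM without. LUM (log2 change 1.87) and DCN (0.25) were higher, and VIM did not pass (0.10, adjusted p = 0.424). The part of these shifts in the results was not tested.

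**Figure D4:**
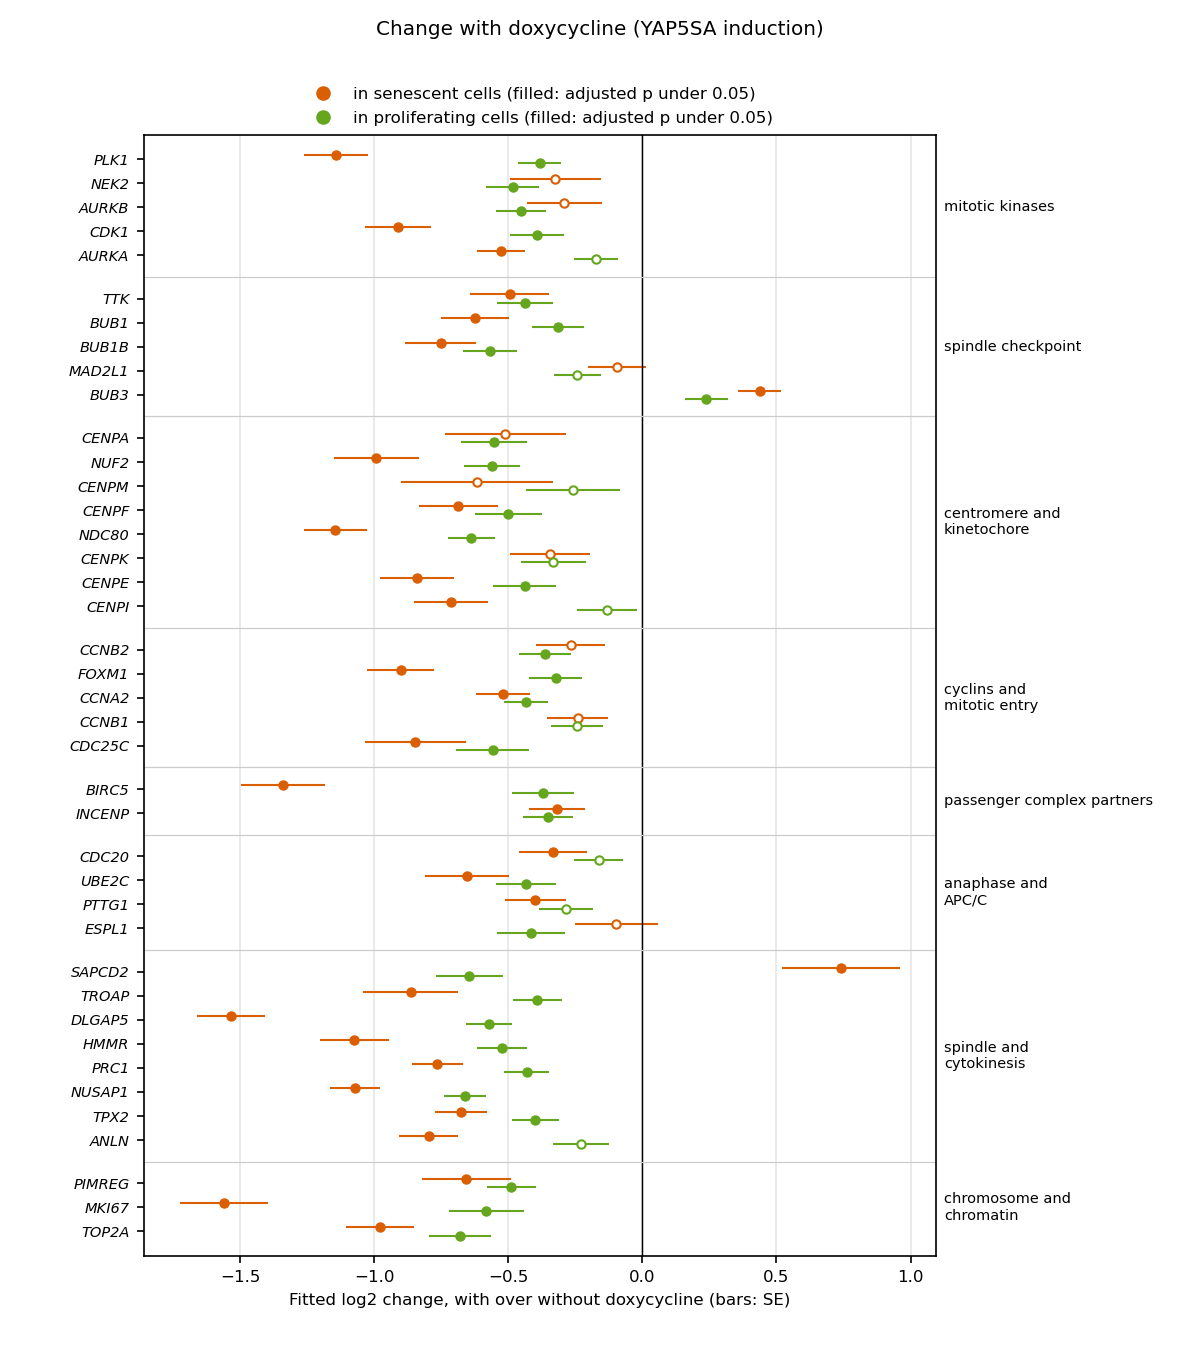
Fitted log2 change of each gene with over without doxycycline, in senescent and in proliferating cells (bars give the SE of the fit, filled points have an adjusted p under 0.05). Most points lie between 0 and -1, MKI67 (-1.56) and DLGAP5 (-1.53) reach furthest down in senescent cells, and BUB3 lies above 0 in both states.

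The difference of the doxycycline effects, senescent minus proliferating, was tested as an interaction. It passed for 12 of the 40 genes, 11 lower and 1 higher, where 11.8% of all genes tested were called lower and 8.08% higher. In the 11 the change with doxycycline was more negative in senescent cells. MKI67 had the most negative difference (log2 difference -0.98, SE 0.21, adjusted p = 0.0108), with a change of -1.56 in senescent and -0.58 in proliferating cells. BIRC5 followed (log2 difference -0.97, SE 0.20, adjusted p = 0.00372), with -1.34 in senescent and -0.37 in proliferating cells, and DLGAP5 (log2 difference -0.96, SE 0.15, adjusted p = 5.01e-04), with -1.53 and -0.57 in the same order of states. PLK1 came next (log2 difference -0.76, SE 0.15, adjusted p = 0.00188). CDK1, CENPI, NDC80, FOXM1, NUSAP1, HMMR and ANLN had differences from -0.58 to -0.41. SAPCD2 was the only member with a called difference in the other direction (log2 difference 1.39, SE 0.25, adjusted p = 0.00130), at 0.74 in senescent and -0.65 in proliferating cells. ESPL1 (0.32, adjusted p = 0.296) and BUB3 (0.20, adjusted p = 0.241) were next among the positive differences and did not pass.

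BIRC5, DLGAP5, PLK1 and SAPCD2 kept their difference with every library left out in turn, which was not counted over all genes tested. The number called fell to 6 without proliferating replicate 1 or without proliferating replicate 2, to 7 without senescent replicate 2 and to 4 without senescent replicate 1 with doxycycline. It was 8, with 7 lower, without senescent replicate 2 with doxycycline, and 18 without senescent replicate 1. Scaled by total counts alone, where the median over all genes was 0.15, 70.5% of called genes were higher, against 40.7% with TMM factors, and 6 of the 40 genes passed. Across the 40 genes the doxycycline changes in senescent and in proliferating cells, which share no library, had Pearson's r of 0.422 and Spearman's rho of 0.425, and 0.262 and 0.387 without BUB3. The lowest counts, such as those of SAPCD2 and CENPM, limit what a difference could be seen in at this depth.

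Kinases, checkpoint genes and centromere genes were set side by side as classes of 5, 5 and 8 genes, with no test, since the genes of a class are not replicates. Without doxycycline, the median log2 change with bleomycin was -3.98 for kinases, -3.26 for checkpoint genes and -3.03 for centromere and kinetochore genes, and the ranges overlapped. Summed kinase levels were 56.8 and 63.0 CPM in senescent cells, against 495 and 481 CPM in proliferating cells. Summed centromere and kinetochore levels were 53.1 and 71.0 CPM in senescent cells, against 476 and 458 CPM in proliferating cells. The kinase sum kept 12.3% and the centromere sum 13.3%, with AURKA supplying 32.3 and 34.4 CPM of the senescent kinase sum. The median gene kept 6.34% among kinases and 12.4% among centromere and kinetochore genes. Summed checkpoint levels were 138 and 142 CPM in senescent cells, against 493 and 487 CPM in proliferating cells, and 28.6% remained, with BUB3 supplying 110.1 and 108 CPM of the senescent sum. With doxycycline in senescent cells the kinase sum was 64.1% and the centromere sum 59.3% of that without doxycycline, while the checkpoint sum was 122% of it. BUB3 supplied 147 and 148 CPM of that checkpoint sum, and the other 4 checkpoint genes had negative changes. The median log2 changes in the same comparison were -0.53, -0.49 and -0.70 for kinases, checkpoint genes and centromere genes. The checkpoint sum and the median checkpoint gene therefore lay on opposite sides of no change.

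**Figure D5:**
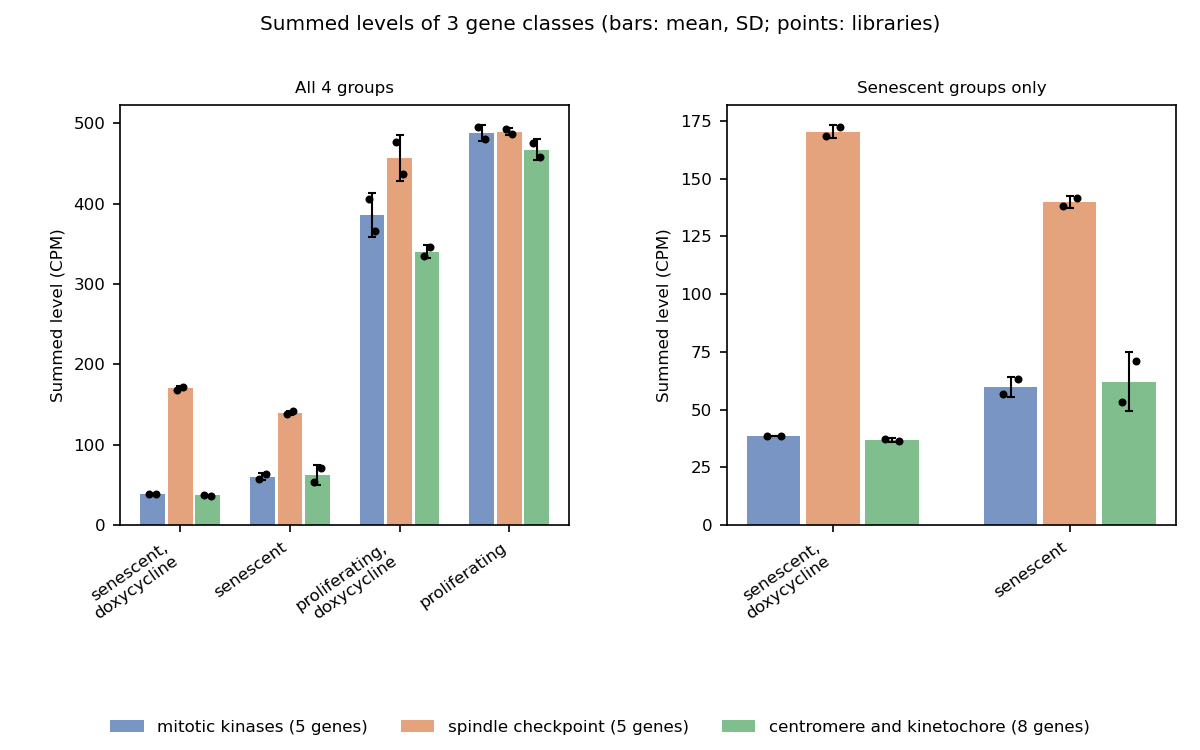
Summed level in CPM of 5 mitotic kinase genes, 5 spindle checkpoint genes and 8 centromere and kinetochore genes in the 4 groups (left) and in the senescent groups alone on an expanded axis (right). Bars give the mean of 2 libraries, error bars the SD and points the libraries, and the checkpoint sum is 170.4 ± 2.85 CPM in senescent cells with doxycycline, above 139.9 ± 2.54 CPM without it. BUB3 alone has a mean of 148 CPM in senescent cells with doxycycline and 109 CPM without it.

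Neighbouring genes of the same machinery were taken from lists of 103 further genes, to be read against the 29.4% of all genes that were lower and 29.8% that were higher with bleomycin. Of 31 other centromere and kinetochore genes 30 were lower in senescent cells without doxycycline, and CENPT did not pass at 70.0 and 70.1 CPM in senescent cells, against 66.9 and 65.6 CPM in proliferating cells. Their median log2 change was -1.93, with the largest fall in CENPW (-4.01), a DNA-binding partner of CENPT in the centromere network. HJURP, the chaperone that loads CENP-A, changed by log2 -3.19 (SE 0.12), beside -4.40 for CENPA itself. Of 8 other checkpoint and passenger genes 7 were lower, led by the passenger subunit gene CDCA8 (-3.49), and MAD2L1BP did not pass (-0.14, adjusted p = 0.244). All 14 condensin and cohesin genes were lower, from -3.63 for the condensin subunit gene NCAPH to -0.45 for the cohesin subunit gene STAG2. The list of the anaphase-promoting complex, which holds core subunits, FZR1, UBE2S and the inhibitor gene FBXO5, had 9 of 17 genes lower, 3 higher and a median of -0.40. FBXO5, which encodes EMI1, had the largest fall on that list (-2.98), and CDC26, a core subunit, the highest change (0.32).

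Of 15 other cyclins, CDKs and CDK regulators 10 were lower and 4 higher with bleomycin, and a share of 4 in 15 is near the 29.8% of all genes that were higher. PKMYT1, an inhibitory kinase of CDK1, fell most (-3.16). CCND2, a D-type cyclin of G1, was at 7.36 and 5.14 CPM in senescent cells, against 0 and 2 counts in the proliferating libraries. Of 18 DREAM, MYB-MuvB and E2F factors 11 were lower and 1 higher. E2F2 fell most (-3.70), and the pocket protein gene RBL2, which encodes the p130 subunit of DREAM, rose to 57.7 and 58.5 CPM in senescent cells, against 32.9 and 34.3 CPM in proliferating cells (log2 change 0.79, SE 0.08, adjusted p = 6.29e-07). MYBL2, the MYB partner of MuvB in dividing cells, stood at 8.07 and 8.88 CPM in senescent cells, against 74.2 and 71.2 CPM in proliferating cells (log2 change -3.10).

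With doxycycline in proliferating cells 43 of the 103 genes were lower and 9 higher, where 10.4% of all genes tested were lower and 12.6% higher. Among the 31 centromere and kinetochore genes 14 were lower and 1 higher, and the lowest and highest fitted changes were those of SPC25 (-0.87, adjusted p = 0.0130) and SKA1 (1.19, adjusted p = 0.151), which reached at most 1.09 CPM in any library. CENPT, the gene called higher on this list, stood at 107 and 114 CPM with doxycycline, against 66.9 and 65.6 CPM without. Condensin and cohesin genes were lower in 12 of 14 cases. In senescent cells 43 of the 103 were lower with doxycycline and 11 higher, where 23.8% of all genes tested were lower and 22.6% higher. HJURP had the lowest change among centromere genes there (log2 change -1.30, SE 0.14, adjusted p = 2.67e-06), and OIP5, a CENP-A loading factor, the highest (0.65, adjusted p = 0.0334). E2F8, a repressor E2F, stood at 0.382 and 0.308 CPM with doxycycline, against 0.868 and 1.34 CPM without (-1.66, adjusted p = 2.03e-04), and E2F5 at 11.8 and 14.7 CPM with doxycycline, against 5.38 and 6.20 CPM without (1.19, adjusted p = 4.79e-06). The cohesin gene RAD21 rose with doxycycline in senescent cells (0.31) and fell in proliferating cells (-0.38), and its difference passed the test (log2 difference 0.70, SE 0.11, adjusted p = 4.08e-04).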

How the data were processed

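RNA was taken by acid phenol extraction and libraries were made with a stranded mRNA kit, per the labels' protocols. Reads were trimmed, aligned and counted against hg38 with tools listed in the submitters' processing notes (Trimmomatic 0.36, HISAT2 2.1.0, featureCounts 1.6.3). No annotation, tool setting or strand option was given in the sources used here. Overlapping genes are therefore uncertain. Beyond those named above, they include FOXM1 (15.9% of exonic bases opposite ITFG2) and PLK1 (11.6% opposite the antisense transcript AC008870.3). BUB1B shares 10.2% of its exonic bases with BUB1B-PAK6 on the same strand. The values are the raw counts per gene that the authors deposited, 1 column per library.

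Counts were fitted with edgeR 4.0.16 (filterByExpr, TMM, robust quasi-likelihood, 4 groups, 4 residual degrees of freedom, two-sided, adjusted p under 0.05 by Benjamini-Hochberg over 17155 genes) in R 4.3.3. The SE is the log2 change over the root of the F statistic. Alternatives used limma 3.58.1, DESeq2 1.42.0, other filters and scalings, replicate blocks and each library left out. Code was tested on simulated data. Plots used matplotlib 3.10.9. Replicate numbers follow the titles.

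All 40 genes could be named. Values per library were given for the paralog pairs, the extremes of each role with bleomycin, the 3 highest and 3 lowest doxycycline changes and differences, and genes called against the majority, and for a few more genes of these roles after their values were seen. Of the other lists the extremes were named, and HJURP and MYBL2 also for their roles, after their values were seen. The genes and lists were chosen with earlier results of these data known. The planned protein comparison was not made. Replicates of every group differed by more than counting noise (chi-square per degree of freedom 3.44 to 17.8). Total counts of 33627708 to 39692162 leave genes under 1 CPM with few counts.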

Additional observations from a re-analysis of the deposited data

Results flagged for a closer look

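The doxycycline effect differed between senescent and proliferating cells for 12 of the 40 genes by the interaction test, given here as senescent minus proliferating on the log2 scale. MKI67 (-0.98), BIRC5 (-0.97), DLGAP5 (-0.96) and PLK1 (-0.76) had the largest negative differences. CENPI (-0.58), FOXM1 (-0.58), ANLN (-0.57), HMMR (-0.55), CDK1 (-0.52), NDC80 (-0.51) and NUSAP1 (-0.41) differed in the same direction. SAPCD2 (1.39) differed in the other. The calls of BIRC5, DLGAP5, PLK1 and SAPCD2 were made with every library left out in turn, and each of the other 8 was lost in at least 2 of the 8 such fits. Over all genes tested, such losses were not counted. In senescent cells the 12 genes ranged from 1.13 CPM for SAPCD2 to 37.3 CPM for ANLN with doxycycline, against 0.668 to 64.8 CPM for the same genes without it.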

How the results depend on the processing

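Both bleomycin comparisons called all 40 genes lower under every alternative run, with 1 exception, 39 genes in the test against a 1.5-fold change with doxycycline, where BUB3 was lost. Doxycycline in proliferating cells called 31 genes (30 lower). The replicate block by description number gave 19 (19 lower) and the 1.5-fold test 0 (0 lower). Doxycycline in senescent cells called 31 (29 lower), and the 1.5-fold test gave 11 (11 lower). The difference called 12 (11 lower), with 6 (4 lower) by total counts, 7 (6 lower) by limma-voom and 1 (0 lower) by the 1.5-fold test. With 1 library left out the counts ran from 17 to 32 (17 to 31 lower) in proliferating cells, 27 to 34 (25 to 32 lower) in senescent cells and 4 to 18 (3 to 17 lower) for the difference. There, a group's lone library is taken to vary as the other groups do. Replicate numbers in the descriptions differ from those in the titles, and residuals of libraries with the same title number correlated by -0.0121 to 0.159, so the numbers were not taken as pairs. The replicate block by title number called 35, 31 and 13 genes in the 3 doxycycline comparisons and changed no bleomycin call. With doxycycline in senescent cells, 2 uncalled log2 changes reversed, ESPL1 (-0.10) with total counts (0.071) and without senescent replicate 2, with a range of -0.33 to 0.16 over the left-out libraries, and MAD2L1 (-0.10) with total counts (0.073) and without senescent replicate 1 with doxycycline, with a range of -0.20 to 0.00623. Within 150 bases before the start, CHR was found in 43.3% of member promoters, against 7.98% of all, and CHR with CCAAT in 36.7%, against 2.14% of all.

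Calls over all genes in the 1.5-fold test were 4350 with bleomycin without doxycycline (10155 in the main result), 3547 with doxycycline (9519), 689 and 2159 with doxycycline in proliferating (3938) and senescent cells (7951) and 517 for the difference (3407). In proliferating cells they were 2353 with the description block and 2099 and 2011 without proliferating replicates 1 and 2. For the difference they were 1954 and 1852 without the same libraries and 2022 without senescent replicate 1 with doxycycline. The 1.5-fold test asks for more by construction. Left-out fits hold fewer samples, and the part of that in their counts was not tested. In the description block, proliferating replicate 1 is the only library with description number 2 and gets a term of its own. That library then adds nothing to the fitted group changes. For the remaining settings the cause was not tested.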
